A study of Mus musculus with 18 samples.

Results

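The genes described here are the retinoic acid receptors Rara, Rarb and Rarg, the retinoid X receptors Rxra, Rxrb and Rxrg, and the COUP-TF genes Nr2f1 and Nr2f2. They were taken by symbol, as 8 of the 55401 gene IDs in the deposited tables, and all 8 passed the filter on low counts. The libraries are poly(A) RNA from RHKI, a mouse embryonic stem cell line derived from E14Tg2a. Every library, control or not, carries the HA-Rnaseh1 knock-in. Rnaseh1 encodes RNase H1, an enzyme that cuts RNA paired with DNA, and the knock-in is switched on with doxycycline (Dox). Dox cells received 500 ng/ml for 48 h before gastruloid differentiation and control cells received none. The labels do not say whether Dox was kept on afterwards, what drives the transgene or whether the line is 1 clone. The 6 groups, of 3 libraries each, were Dox and control stem cells at day 0 (0 h), and Dox and control gastruloids at day 3 (72 h) and day 5 (120 h). Gastruloids are aggregates of stem cells grown in culture until they hold neural, mesodermal and other embryonic tissues.

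On GRCm38, with GENCODE M21 coordinates, the RAR genes lie on 3 chromosomes: Rara (ENSMUSG00000037992) at chr11:98927818-98974942 on the plus strand, Rarb (ENSMUSG00000017491) at chr14:16430839-16819156 on the minus strand and Rarg (ENSMUSG00000001288) at chr15:102234938-102257517 on the minus strand. Rxra (ENSMUSG00000015846) is at chr2:27676440-27762957, Rxrb (ENSMUSG00000039656) at chr17:34031812-34038399 and Rxrg (ENSMUSG00000015843) at chr1:167598384-167639623, all on the plus strand. Nr2f1 (ENSMUSG00000069171) is at chr13:78188973-78199757 and Nr2f2 (ENSMUSG00000030551) at chr7:70351944-70366735, both on the minus strand. All 8 are annotated as protein-coding.

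Retinoic acid is a small lipid signal made from vitamin A. It binds RAR proteins, which sit on DNA as partners of RXR proteins. Without ligand the pair recruits corepressors, and with ligand it recruits coactivators. In the embryo, retinoic acid made by somites acts on the hindbrain, the spinal cord and the Hox genes. COUP-TF proteins are orphan nuclear receptors of neural and mesodermal tissue that can bind the same direct repeats and the same RXR partners. Rarb is a textbook direct target, with a retinoic acid response element at its start. That element is a direct repeat of 2 hexamers with 5 bases between them, called DR5.

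The Rarb element is shown because Rarb was among the genes that differed with Dox. The element of Cyp26a1, which encodes an enzyme that breaks down retinoic acid, is the other DR5 found at a start among the genes listed for this work. Both come from RefSeq promoter windows on GRCm38.p6, with 6 flanking bases on each side and the hexamers in capitals.
Rarb, chr14:16575507-16575535, minus strand: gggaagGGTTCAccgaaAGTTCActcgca
Cyp26a1, chr19:37697770-37697798, minus strand: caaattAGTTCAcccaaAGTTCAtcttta
The search used the hexamer AGGTCA, its variant AGTTCA, the form GGGTCA and also the form GGTTCA, in any pair on 1 strand, on both strands, with 1, 2 or 5 bases between them (DR1, DR2 and DR5). Windows ran from 250 bases before to 50 after each RefSeq start. A DR5 was in 32 of 32851 windows (0.0974%), a DR1 in 0.222% and a DR2 in 0.268%. All 8 genes matched, with 16 windows, and only the window of Rarb held any of the 3 repeats. The Rarb element lies 53 to 37 bases before the RefSeq start and runs with the gene. In GENCODE M21 it lies inside the annotated first exons of Rarb-201 and Rarb-207, which start at 16575543 and 16575827. The Cyp26a1 element lies 32 to 16 bases before the start, on the opposite strand to the gene. A match is a description of letters and not a measured binding site.

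Depth was similar across groups, at 25748897 to 38128366 counts per library. Levels are given as CPM, counts scaled to a common library size with TMM factors, where the same gene is compared between groups. Different genes are compared in TPM, which also divides by transcript length. The induction was visible in every Dox library. Rnaseh1 stood at 137 to 172 CPM in Dox against 25.8 to 30.3 CPM in control cells at day 0, at 66.1 to 70.2 against 22.2 to 24.1 CPM at day 3, and at 53.7 to 60.4 against 19.3 to 20.1 CPM at day 5. Its log2 fold changes, Dox over control, were 2.43, 1.54 and 1.54, with edgeR adjusted p of 4.1e-13, 9.9e-10 and 1.3e-09. Markers fitted the labelled stages, with 10 stem cell genes summing to 6760 to 7340 CPM in Dox and 6800 to 6940 CPM in control cells at day 0. At day 5 they summed to 19.4 to 27.2 CPM in Dox and 15 to 22.8 CPM in control gastruloids, and 10 neural progenitor genes to 1440 to 1610 and 1520 to 1550 CPM. Nothing in the labels says that replicates were separate cultures, so each p-value reads only how far these libraries scatter.

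**Figure D1:**
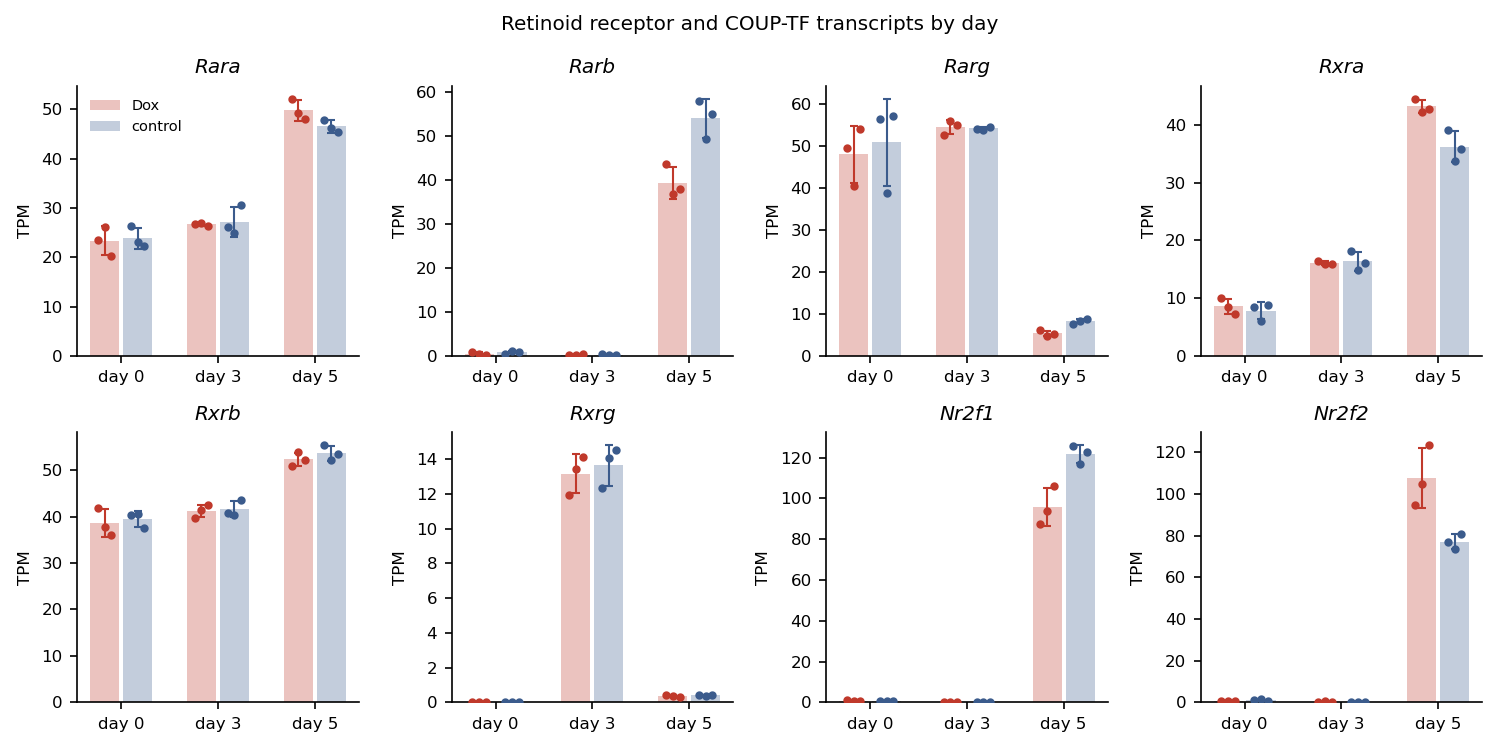
TPM of each gene in each library by day, Dox left of control. Bars are means of 3 libraries, error bars are SD and points are libraries; axes start at 0 and differ in scale. Rarb, Nr2f1 and Nr2f2 are near 0 until day 5, Rxrg is above 1 TPM at day 3 alone, and Rarg is low at day 5.

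In stem cells the RAR and RXR transcripts came mainly from Rarg, Rara and Rxrb. By TPM at day 0, Rarg averaged 48.0 ± 6.8 in Dox and 50.8 ± 10.0 in control cells (SD, n = 3 each), followed by Rxrb at 38.5 ± 3.0 and 39.5 ± 1.7. The libraries of Rarg and Rxrb overlapped, so their order was not resolved. Rara stood next at 23.4 ± 2.9 TPM in Dox and 23.9 ± 2.1 TPM in control cells, and Rxra at 8.58 ± 1.3 and 7.82 ± 1.5 TPM. Nr2f1, Nr2f2 and Rarb each lay between 0.18 and 1.45 TPM and overlapped with their neighbours in the order. Rxrg had 0 counts in all 6 day 0 libraries.

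None of these genes was called for Dox in stem cells or at day 3. At day 0, 0 of 8 passed edgeR's adjusted p of 0.05, where 1.04% of the 17795 genes tested passed and 2197 had an unadjusted p under 0.05. At day 3, 0 of 8 passed, where 0.0169% of all genes did and 432 had an unadjusted p under 0.05. DESeq2 and limma-voom also called 0 of 8 at both days. No gene's libraries separated by treatment at either day, where 10.2% and 11.1% of all genes tested did. The only one of the 8 with an unadjusted p under 0.05 at these days was Rarb at day 0, at 1.37, 0.897 and 0.438 CPM in Dox and 1.25, 1.5 and 1.65 CPM in control cells. These are 12 to 33 and 32 to 48 counts, giving a log2 fold change of -0.73 ± 0.27 (SE; edgeR adjusted p = 0.25). With no filter on low counts its adjusted p was 0.046. The log2 fold change was -1.15 without Dox replicate 1 and -0.38 without Dox replicate 3, with adjusted p of 0.053 and 0.49. Intervals were narrow for the abundant genes and wide for the scarce ones. At day 3 the 95% interval of the log2 fold change was -0.18 to 0.16 for Rxra and -0.47 to 1.47 for Nr2f1, which had 3 to 9 counts per library. The interval of Nr2f1 is slightly narrower than counting error alone would give.

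Of the 3 RARs, Rarb was switched on late in the control course, with Rarg falling at the same step. Rarb, the RAR whose DR5 is shown above, stood at 91.4, 86.7 and 92.1 CPM in control gastruloids at day 5. At day 3 it stood at 0.531, 0.488 and 0.435 CPM, a log2 fold change of 7.54 ± 0.19 for day 5 over day 3. That SE is slightly smaller than counting error alone would give. Rarg, a RAR of stem cells and of unsegmented mesoderm in the embryo, stood at 12.7, 14.5 and 15 CPM at day 5, against 93.3, 97.0 and 97.6 CPM at day 3, a log2 fold change of -2.77 ± 0.11. Rara, the broadly expressed RAR, stood at 81.8, 86.7 and 81.3 CPM at day 5 and 47.5, 47.5 and 57.5 CPM at day 3, a log2 fold change of 0.71 ± 0.08. The day 5 and day 3 libraries did not overlap for any of the 3. The share of all genes without overlap at this step was not counted, and 64.8% of all genes tested were called there. In bulk RNA, fewer cells that express a gene and less RNA per cell cannot be told apart. Between day 3 and day 0 of the control course Rara and Rarg gave log2 fold changes of 0.03 and -0.08, with edgeR adjusted p of 0.74 and 0.48. Rarb was lower at day 3 than at day 0, at 16 to 19 counts against 32 to 48 per library, a log2 fold change of -1.60 ± 0.29 with an edgeR adjusted p of 6.1e-05. In the Dox course the same step gave -0.77 and an edgeR adjusted p of 0.044, which did not hold in every setting. It was 0.14 with limma-voom, 0.1 with library size alone and 0.17 with only the groups compared. Without day 0 Dox replicate 1 it gave -0.355 and an adjusted p of 0.37. It also missed the threshold without day 0 Dox replicate 2, day 3 Dox replicate 1 or 2, day 0 control replicate 2, day 3 control replicate 2 or 3, or day 5 control replicate 1, with adjusted p of 0.05 to 0.17.

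The RXRs each had a course of their own. Rxra, a common partner of RARs, was higher at each step, at 51.0 to 60.6 CPM in control gastruloids at day 3 against 22.1 to 27.1 CPM at day 0, a log2 fold change of 1.2 ± 0.08. At day 5 it reached 111 to 119 CPM, 1.04 ± 0.08 above day 3 on the log2 scale. Rxrg, an RXR with restricted expression in the embryo, appeared at day 3 with 15.4, 18.6 and 18.5 CPM in control gastruloids, against 0 counts in every day 0 library. That is at least 163-fold higher than a floor of 3 counts per library, and at least 144-fold in the Dox course. At day 5 it was back to 0.440, 0.444 and 0.412 CPM, 13 to 16 counts per library, a log2 fold change of -5.33 ± 0.17 against day 3. That SE is smaller than counting error alone would give. Rxrb, the RXR with the steadiest level here, was 71.1 to 72.9 CPM at day 5 and 57.4 to 63.0 CPM at day 3, a log2 fold change of 0.27 ± 0.06.

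Nr2f1 and Nr2f2, like Rarb, were near 0 until day 5 and then high. Nr2f1 encodes COUP-TF1, a factor of the neural tube and of cortical patterning. It stood at 125, 125 and 124 CPM in control gastruloids at day 5, against 0.232, 0.154 and 0.0768 CPM at day 3, a log2 fold change of 9.68 ± 0.17. The day 3 value rests on 3 to 7 counts per library, and the SE is smaller than counting error alone would give. Nr2f2 encodes COUP-TF2, a factor of mesenchyme, veins and ventral neural tissue. It stood at 112, 107 and 113 CPM at day 5, against 0.498, 0.308 and 0.461 CPM at day 3, a log2 fold change of 8.04 ± 0.18. That SE is too small in the same way. Earlier in the control course, both genes were lower at day 3 than at day 0, by log2 fold changes of -2.63 ± 0.33 and -1.88 ± 0.28. The SE of Nr2f1 at this step is also smaller than counting error alone would give. Day 0 counts were 22 to 30 for Nr2f1 and 24 to 68 for Nr2f2.

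Calls along the course were common among all genes. In control, 5 of 8 passed for day 3 against day 0, where 73.5% of all genes tested did. All 8 passed for day 5 against day 3 and for day 5 against day 0, where 64.8% and 79.2% did. In the Dox course the counts were 5, 8 and 8, where 72.6%, 65.1% and 79.4% of all genes passed. The median log2 fold change for day 5 against day 3 in control was 0.88 over the 8 genes and -0.01 over all genes. In the Dox course the same step gave 6.81 ± 0.19 for Rarb, -3.49 ± 0.12 for Rarg, 8.84 ± 0.17 for Nr2f1 and 8.25 ± 0.17 for Nr2f2. The SEs of Rarb, Nr2f1 and Nr2f2 are again smaller than counting error alone would give.

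**Figure D2:**
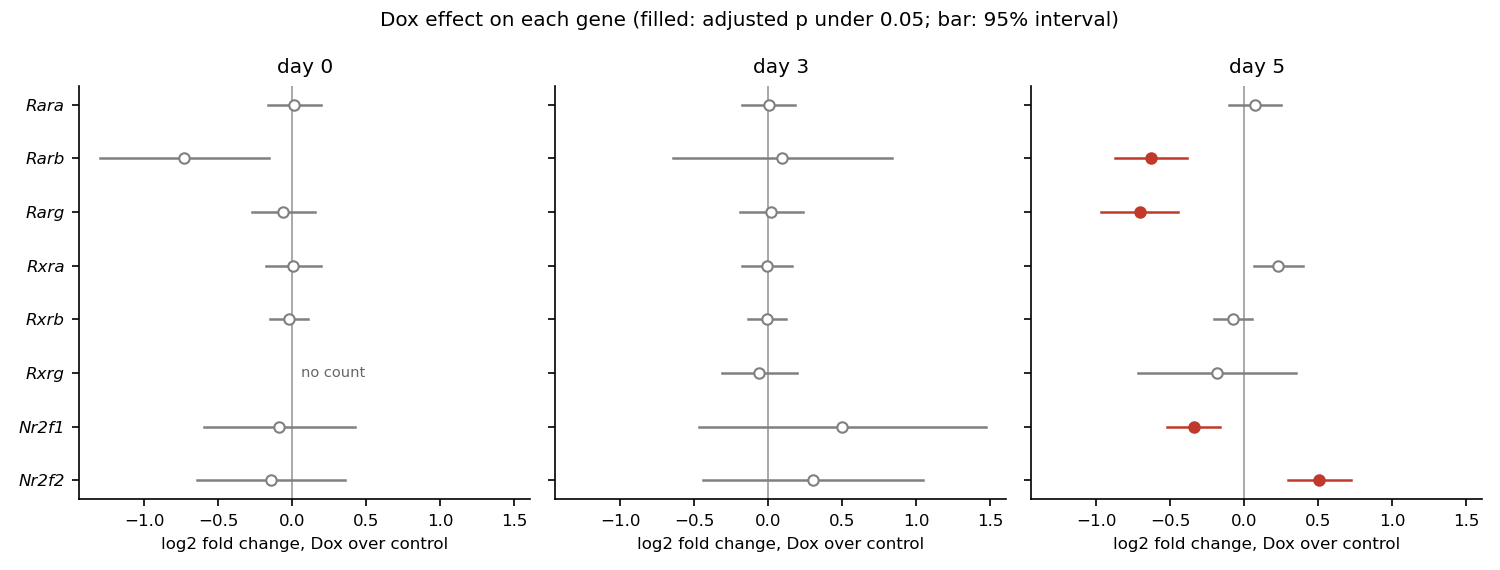
Log2 fold change, Dox over control, of each gene at day 0, day 3 and day 5 from edgeR, with 95% intervals; filled red points have an adjusted p under 0.05. Filled points appear at day 5 alone, for Rarb, Rarg and Nr2f1 below 0 and Nr2f2 above 0; Rxrg had no count at day 0.

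At day 5, Dox gastruloids had less Rarb, Rarg and Nr2f1 transcript and more Nr2f2. These 4 of 8 passed edgeR's adjusted p of 0.05, where 4.74% of all genes tested passed. The 1 higher gene stands beside 2.39% of all genes called higher, and the 3 lower genes beside 2.34% called lower. The libraries did not overlap for 6 of 8, where the same was true of 26.1% of all genes. Rxra and Nr2f2 lay above (13.8% of all genes did), and Rarb, Rarg, Rxrb and Nr2f1 below (12.3%). The median log2 fold change was -0.13 over the 8 genes and 0.00344 over all genes tested.

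Rarb stood at 64.3, 55.8 and 54.5 CPM in Dox gastruloids and at 91.4, 86.7 and 92.1 CPM in control gastruloids at day 5. The highest Dox library lay below the lowest control library. This is a log2 fold change of -0.63 ± 0.12 (SE), a 1.55-fold lower level (edgeR adjusted p = 0.0027). In TPM, which divides by a length that also differed, Rarb stood at 43.5, 36.7 and 37.8 TPM in Dox and 57.8, 49.2 and 54.9 TPM in control gastruloids. Rarg stood at 9.25, 8.23 and 8.46 CPM in Dox gastruloids and at 12.7, 14.5 and 15 CPM in control gastruloids, again without overlap. Its log2 fold change was -0.71 ± 0.12 (edgeR adjusted p = 0.0017), and the values rest on 270 to 304 and 375 to 583 counts. Rara, the third RAR, was not called, at 88.7, 88.3 and 86.1 CPM in Dox and 81.8, 86.7 and 81.3 CPM in control gastruloids. Its 95% interval was -0.10 to 0.25 on the log2 scale.

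Nr2f2 stood at 139, 161 and 173 CPM in Dox gastruloids and at 112, 107 and 113 CPM in control gastruloids. All 3 Dox libraries were above all 3 control libraries, for a log2 fold change of 0.51 ± 0.10, a 1.42-fold higher level (edgeR adjusted p = 0.0046). Without day 5 Dox replicate 3 the adjusted p was 0.057. Nr2f1 moved the other way, at 90.7, 98.3 and 106 CPM in Dox gastruloids and 125, 125 and 124 CPM in control gastruloids. Its log2 fold change was -0.34 ± 0.09, a 1.27-fold lower level (edgeR adjusted p = 0.026). That call was lost when any of 5 of the 6 day 5 libraries was left out, with adjusted p of 0.083 to 0.13. It was kept without Dox replicate 3.

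Among the RXRs no gene was called at day 5 in the main test. Rxra came closest, at 136, 133 and 134 CPM in Dox gastruloids and 119, 111 and 113 CPM in control gastruloids, with no overlap. It gave a log2 fold change of 0.23 ± 0.08, where edgeR's adjusted p was 0.11 without and 0.030 with the replicate number as a block. It also passed in other settings, with adjusted p of 0.031 by limma-voom and 0.0088 in a fit of only the groups compared. Rxrb stood at 66.2 to 70.6 CPM in Dox and 71.1 to 72.9 CPM in control gastruloids, with a 95% interval of -0.20 to 0.05 on the log2 scale. Rxrg had 11 to 14 counts per Dox library and 13 to 16 per control library, and its 95% interval ran from -0.72 to 0.35 on the log2 scale. That interval is narrower than counting error alone would give.

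For Rarg the Dox effect itself differed between days. It was 0.73 lower at day 5 than at day 3 on the log2 scale (edgeR, interaction, -0.73 ± 0.16, adjusted p = 0.036) and 0.65 lower than at day 0 (-0.65 ± 0.16, adjusted p = 0.031). These were 1 of 8 genes in each test, where 0.82% and 3.28% of all genes passed. Both calls were lost without day 5 Dox replicate 2 or 3, or without day 5 control replicate 2 or 3, with adjusted p of up to 0.14. The call against day 3 was also lost without any 1 of the 6 day 3 libraries. With limma-voom the adjusted p was 0.15 and 0.11. For day 3 minus day 0, 0 of 8 passed in edgeR, DESeq2 or limma-voom, where 0.0562% of all genes passed in edgeR and 1433 had an unadjusted p under 0.05. For the other genes an effect at day 5 and none called earlier is not shown to differ between days. Rarb gave -0.73 ± 0.38 for day 5 minus day 3 with an edgeR adjusted p of 0.66, and 0.10 ± 0.29 for day 5 minus day 0 with 0.94.

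**Figure D3:**
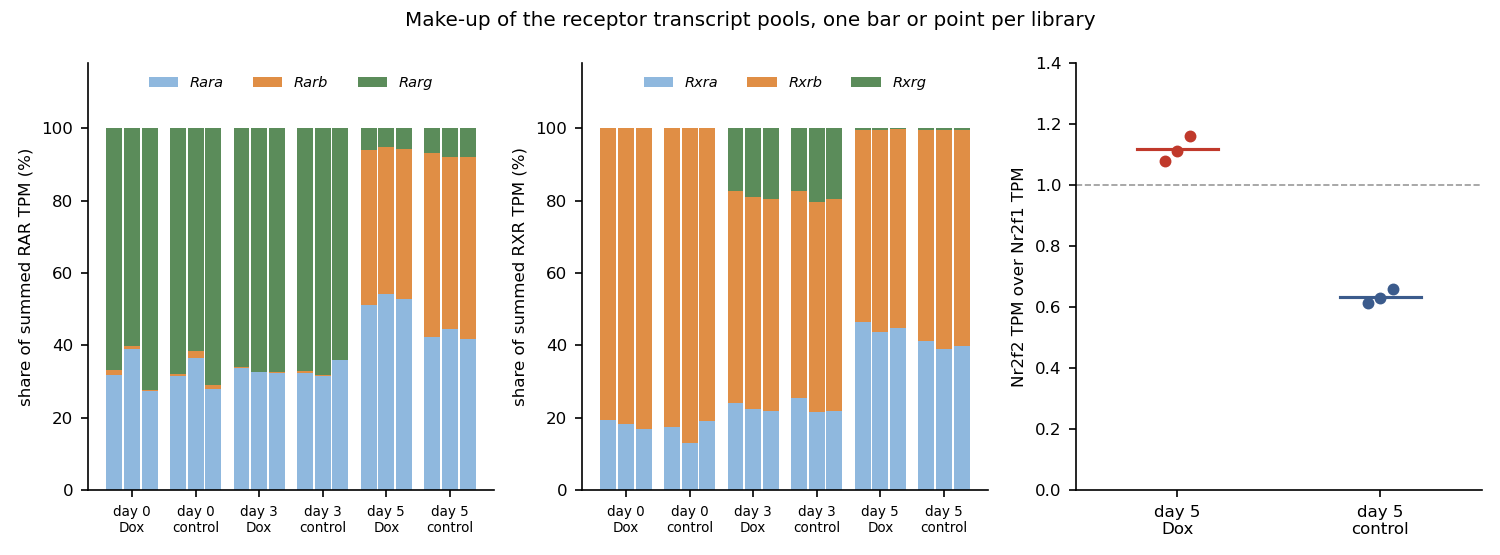
Left and middle, the share of summed TPM held by each RAR and each RXR gene, 1 stacked bar per library, in percent, Dox left of control within a day. Right, Nr2f2 TPM over Nr2f1 TPM at day 5, where points are libraries, lines are means and the dashed line marks equal TPM; Dox libraries lie above 1 and control libraries below.

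Expressed as shares of TPM, the RAR pool was remade between day 3 and day 5 in both courses. Rarg held 60.4 to 72.4% of RAR transcripts in Dox and 61.6 to 71.1% in control cells at day 0, and 66.0 to 67.4% and 63.9 to 68.2% at day 3. At day 5 it held 5.98, 5.27 and 5.82% in Dox and 6.78, 8.08 and 8.04% in control gastruloids. Rarb then held 42.8, 40.4 and 41.5% in Dox and 51.0, 47.4 and 50.3% in control gastruloids. Rara made up the rest, with 51.2 to 54.3% in Dox and 41.7 to 44.5% in control gastruloids. The leading RAR gene at day 5 was therefore Rara in each Dox library and Rarb in each control library. Summed RAR TPM was 90.7 to 102 in Dox and 104 to 113 in control gastruloids. Shares of 1 pool are tied to each other, and these are given as a description.

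The RXR pool moved from Rxrb towards Rxra, but Rxrb kept the larger share at day 5. Rxrb held 80.7 to 83.1% in Dox and 80.9 to 86.9% in control cells at day 0. At day 3 Rxrg held 17.5 to 19.5% in Dox and 17.3 to 20.3% in control gastruloids, and Rxrb 58.4 to 58.6% and 57.2 to 58.7%. At day 5 Rxra held 46.4, 43.8 and 44.9% in Dox and 41.2, 39.1 and 39.9% in control gastruloids. Rxrb still held more, at 53.2, 55.8 and 54.8% in Dox and 58.3, 60.4 and 59.6% in control gastruloids. Summed RXR TPM at day 5 was 95.3 to 96.5 in Dox and 86.3 to 94.9 in control gastruloids. In Dox it overlapped the RAR sum, and in control gastruloids it lay below it.

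The summed TPM of the COUP-TF genes overlapped between Dox and control gastruloids at day 5, while their balance differed. Nr2f1 and Nr2f2 together gave 183, 199 and 230 TPM in Dox gastruloids at day 5 and 203, 191 and 203 TPM in control gastruloids. Nr2f2 over Nr2f1 was 1.08, 1.11 and 1.16 in Dox gastruloids and 0.614, 0.628 and 0.658 in control gastruloids. In Dox gastruloids Nr2f2 averaged 108 ± 15 TPM and Nr2f1 96.0 ± 9.3 TPM, and their libraries overlapped. In control gastruloids Nr2f1 led the order of all 8 genes, with its lowest library at 117 TPM above the highest Nr2f2 library at 80.7 TPM. Behind them in Dox gastruloids came Rxrb (52.3 ± 1.4 TPM) and Rara (49.8 ± 2.1), which overlapped, then Rxra (43.2 ± 1.2) and Rarb (39.3 ± 3.6), which overlapped, then Rarg (5.39 ± 0.65) and Rxrg (0.36 ± 0.061). In control gastruloids the order was Rarb (54.0 ± 4.4 TPM) and Rxrb (53.7 ± 1.6), which overlapped, then Rara (46.5 ± 1.3), Rxra (36.2 ± 2.7), Rarg (8.28 ± 0.55) and Rxrg (0.413 ± 0.032).

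**Figure D4:**
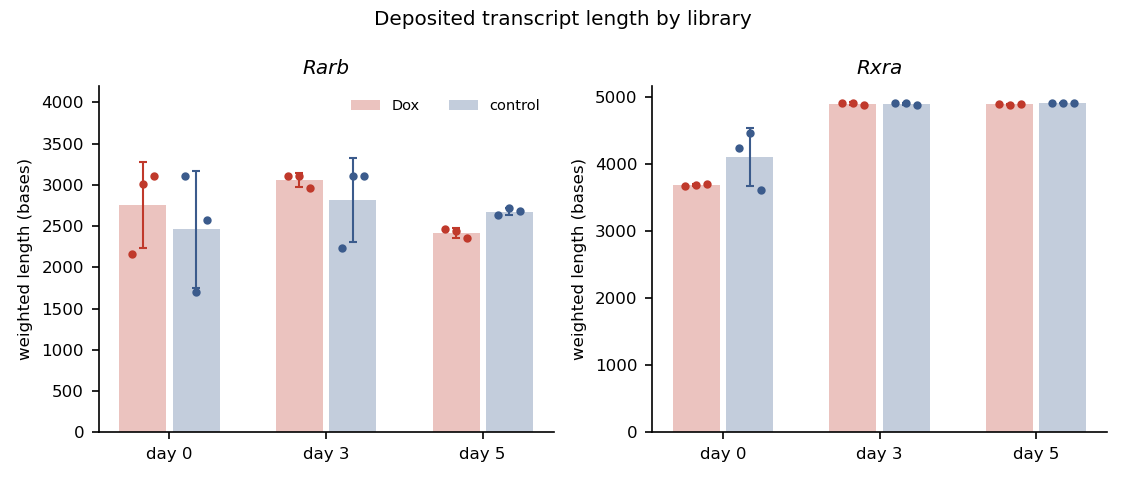
Deposited transcript length of Rarb and Rxra, averaged by RSEM over each gene's transcripts weighted by their abundance, in bases, by day with Dox left of control. Bars are means of 3 libraries, error bars SD and points libraries; Rarb is shorter in the 3 Dox than in the 3 control libraries at day 5, and Rxra is shorter at day 0 than later.

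The deposited tables also give each gene's length averaged over its transcripts by abundance, which reads out isoform use without naming the isoforms. For Rarb at day 5 it was 2461, 2440 and 2353 bases in Dox gastruloids and 2633, 2717 and 2682 bases in control gastruloids, with no overlap. In GENCODE M21 its coding transcripts are Rarb-201 with 3108 bases, Rarb-207 with 2756, Rarb-203 with 708 and Rarb-204 with 360. The shorter pair of these starts far upstream of the element shown above, at 16819156 and 16819005. The transcripts not typed as protein-coding are also short, Rarb-205 with 1876 bases, Rarb-202 with 1052 and Rarb-206 with 679. They start near the element, at 16575440, 16575472 and 16575045. Which transcripts lowered the average in Dox gastruloids was not tested. At days 0 and 3 Rarb length rested on at most 48 counts and spread from 1699 to 3108 bases. For Rxra it was 3667 to 3697 bases in Dox and 3614 to 4453 bases in control cells at day 0. From day 3 on it was 4872 to 4905 bases in Dox and 4876 to 4905 in control gastruloids, where Rxra-201 has 4905. The annotation release behind the tables is not given in the sources used here, so a length is not assigned to a transcript.

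Rarb, Nr2f1 and Nr2f2 overlap other genes on the opposite strand, and whether the counting used strand is not stated. The 3′ end of Rarb overlaps that of Top2b, a DNA topoisomerase gene, and 30.8% of the 50-base runs in Rarb transcripts also occur in Top2b. Top2b stood at 259 to 271 CPM in Dox and 229 to 260 CPM in control gastruloids at day 5, with a log2 fold change of 0.12 (edgeR adjusted p = 0.47). At day 3 it stood at 145 to 154 and 149 to 168 CPM while Rarb held 8 to 24 and 16 to 19 counts. Nr2f1 shares 1.10% of its runs with A830082K12Rik, at 6.94 to 8.14 CPM in Dox and 8.20 to 9.90 CPM in control gastruloids at day 5. Nr2f2 shares 6.92% with B130024G19Rik, at 1.3 to 2.1 and 0.643 to 1.19 CPM. Neither was called for Dox at day 5 (edgeR adjusted p of 0.61 and 0.41). Nr2f1 and Nr2f2 share 10 runs with each other, which is 0.196% and 0.117% of their runs.

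**Figure D5:**
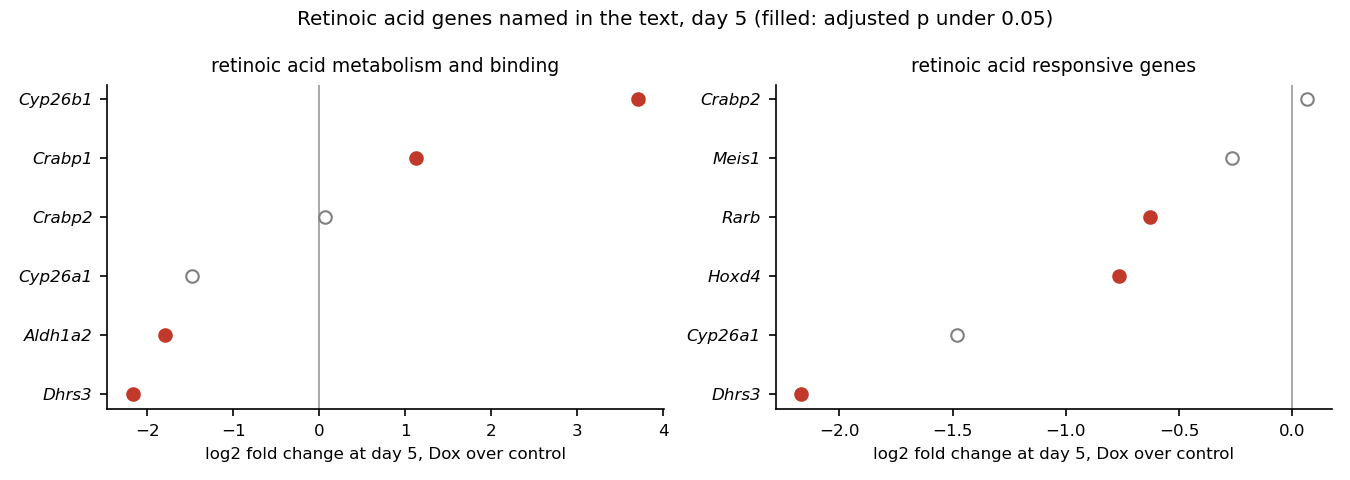
Log2 fold change at day 5, Dox over control, of the genes named in the text from the lists of retinoic acid metabolism and binding (left) and retinoic acid responsive genes (right), sorted by value; other list genes are not drawn, and filled red points have an edgeR adjusted p under 0.05. Cyp26b1 lies furthest to the right and Dhrs3 and Aldh1a2 lie to the left, and no filled point on the right panel is above 0.

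Genes on both sides of ligand supply differed at day 5. Of 14 tested genes of retinoic acid metabolism and binding, 2 were higher and 2 lower in Dox gastruloids, and 10 did not pass. Of all genes tested, 2.39% were called higher and 2.34% lower at day 5. Aldh1a2, the main enzyme that makes retinoic acid in the early embryo, stood at 5.78, 3.02 and 3.03 CPM in Dox gastruloids and 12.5, 12.9 and 15.5 CPM in control gastruloids. Its log2 fold change was -1.79 (edgeR adjusted p = 8.4e-05). Dhrs3, a retinaldehyde reductase induced by retinoic acid, had a log2 fold change of -2.17. Cyp26b1, which breaks retinoic acid down, stood at 14.4, 27.8 and 32.7 CPM in Dox and 1.83, 1.62 and 2.24 CPM in control gastruloids, a log2 fold change of 3.71. Crabp1, a retinoic acid binding protein of the cytoplasm, had 1.13. The list's median log2 fold change was 0.01, and that of all genes tested was 0.00344.

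Of 17 retinoic acid responsive genes, all tested, 4 were lower and 0 higher in Dox gastruloids at day 5, with a median log2 fold change of -0.42. Over all genes tested, 2.34% were called lower and 2.39% higher, with a median of 0.00344. Rarb and Dhrs3 are among those 4. Hoxd4, a Hox gene of the hindbrain and spinal cord, stood at 37.2, 37.7 and 33.1 CPM in Dox and 65.1, 58.5 and 59.8 CPM in control gastruloids. Its libraries did not overlap, and its log2 fold change was -0.77 (edgeR adjusted p = 0.0014). Cyp26a1, with the other element shown above, stood at 0.183, 0.061 and 0.462 CPM in Dox and 0.440, 1.14 and 0.437 CPM in control gastruloids, 2 to 16 and 13 to 36 counts. Its groups overlapped, and its edgeR adjusted p was 0.18. At day 0, 0 of 17 were higher and 1 lower, and at day 3 none passed, where 1.04% and 0.0169% of all genes tested passed.

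Genes for the proteins that RARs and RXRs recruit were not called for Dox at any day. Of 11 corepressor genes 0 passed at day 5, and of 11 coactivator genes 0 passed, with median log2 fold changes of -0.02 and 0.02. At that day 4.74% of all genes tested passed. Ncor1, which encodes a corepressor bound by unliganded RARs, averaged 208 ± 18 CPM in Dox and 211 ± 18 CPM in control gastruloids (SD, n = 3). In edgeR 2916 of all genes had an unadjusted p under 0.05 at day 5, so the list counts of 0 refer to the adjusted threshold alone. Among 27 tested genes of the 41 other nuclear receptors, 2 were called at day 5, both thyroid hormone receptors and both higher. Thra had 39.5 ± 1.6 CPM in Dox and 32.0 ± 2.2 CPM in control gastruloids, a log2 fold change of 0.31 with an edgeR adjusted p of 0.034. Thrb had 0.727 ± 0.13 and 0.259 ± 0.095 CPM, a log2 fold change of 1.5 with an adjusted p of 0.028. Nr2f6, the third mouse COUP-TF family gene, had 83.4 ± 5.1 and 89.8 ± 1.8 CPM and was not called (edgeR adjusted p of 0.54).

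Cell type markers also differed between the groups at day 5, and their part in the receptor differences was not tested. The counts below stand beside 2.39% of all genes tested called higher and 2.34% called lower. Over 10 somite genes the summed level was 80.4 to 110 CPM in Dox and 138 to 155 CPM in control gastruloids, with 5 genes lower and 0 higher. Pax1, a sclerotome factor, had a log2 fold change of -3.14 (edgeR adjusted p of 4.4e-07), and Aldh1a2 is on this list too. Over 10 young neuron genes it was 102 to 127 and 76.5 to 80.6 CPM, with 4 higher and 1 lower. Elavl3, an RNA-binding protein of new neurons, had 1.28 and Neurog2, a proneural factor, had -1.42. Over 10 neural progenitor genes it was 1440 to 1610 and 1520 to 1550 CPM, with 2 higher and 3 lower. The endoderm sum was 17.4 to 26.0 and 29.1 to 35.2 CPM, with Foxa1 and Foxa2 lower and 7 tested genes not called. The neural crest sum had a median of 98.1 and 90.8 CPM over libraries, with 2 of 9 tested genes higher and 1 lower. For endothelium and blood it was 6.05 to 6.79 and 3.99 to 5.39 CPM, for presomitic mesoderm 246 to 289 and 228, and for primitive streak 9.73 to 9.96 and 11.6 to 13.1 CPM. In these 3 lists 1 of 8, 1 of 8 and 0 of 9 tested genes were higher and 0 lower. Most of the presomitic mesoderm sum came from Lfng, at 131 CPM in Dox and 107 CPM in control gastruloids, and Dll1, at 136 and 114 CPM. Tbx6 averaged only 0.547 and 0.382 CPM, Mesp2 0.923 and 0.94 CPM, and Hes7 0.0492 and 0.193 CPM. Gata1, a blood factor, was at 0 counts in control gastruloids, and Msgn1 of presomitic mesoderm and Evx1 of the streak were at 0 in both groups.

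For each gene the 3 tested genes with the nearest course over the 18 libraries were found, by the root mean square difference of centred log2 CPM among 11381 candidates. The nearest to Rarb was Meis1 (0.49, where the spread of Rarb itself was 3.13), and the nearest to Nr2f2 was also Meis1 (0.49 of 3.48). Meis1 is a homeobox factor and is on the list of retinoic acid responsive genes. It had 110 ± 5.4 CPM in Dox and 133 ± 5.2 CPM in control gastruloids at day 5 (edgeR adjusted p of 0.063). The distance reads mainly the step to day 5 and says little of Dox. At day 5 the log2 fold change with Dox was -0.27 for Meis1, -0.63 for Rarb and 0.51 for Nr2f2. Nr2f1 was nearest to Fam181a (0.56 of 3.81), then to Nr2f2 (0.60). Rarg was nearest to Olfr1388 (0.19 of 1.5) and Zbtb7b (0.23), Rxra to Bcl2l11 (0.082 of 0.967) and Tcf12 (0.091), and Rxrg to Arhgef5 (0.46 of 3.34). Rara and Rxrb varied least, with spreads of 0.372 and 0.123. Their nearest genes were Cables2 at 0.094 for Rara and Safb and Tsen34 at 0.051 for Rxrb.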

How the data were processed

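Poly(A) RNA of 18 libraries was analysed in 6 groups of 3. The members and lists were chosen with earlier results of these data known. Per the submitters' processing notes the tools were STAR 2.7.10a, RSEM 1.3.3, Trimmomatic and DESeq2 1.38.2, and the build was GRCm38; the annotation release and strand setting are not given in the sources used here. The deposited tables hold RSEM expected counts, estimated per gene and not scaled to depth, of which 6.54 to 7.49% were not whole; all were rounded here. Deposited TPM values, scaled by the authors for length and depth, served for levels between genes and pool shares; the weighted length was also read, and FPKM was not used. Of 55401 IDs, 55141 matched GENCODE M21; the other 260 held 0.0053% of counts.

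The main test was edgeR's quasi-likelihood F test (edgeR 4.0.16, R 4.3.3) on rounded counts, after TMM scaling (factors 0.894 to 1.063) and filterByExpr (minimum count 10, minimum total 15; 17795 genes), with 1 mean per group (12 residual degrees of freedom, common BCV 0.09). Contrasts were Dox against control by day, days within Dox and within control, and differences of the Dox effect between days, at a Benjamini-Hochberg adjusted p of 0.05 over all genes. The fit was checked on simulated counts. A fold against a group with 0 counts used a floor of 3 counts per library, which covers counting error only, as do intervals from counts. Sequences came from RefSeq windows.

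The labels give replicates of 1 number the same batch tag, which was read as pairing the samples. After removing group means, same-numbered Dox and control libraries correlated across genes at 0.21 to 0.33 at day 0. The values were 0.01 to 0.036 at day 3 and 0.022 to 0.051 at day 5. Libraries with different numbers reached 0.055 at day 0 and 0.02 at days 3 and 5, so pairing is clear at day 0 alone. Named genes were the 8, Rnaseh1, up to 4 called genes per list with the largest log2 fold changes, and the 3 nearest courses per gene among genes with at least 5 CPM in a group. Overlapping genes, Nr2f6, Ncor1, Meis1 at day 5 and Cyp26a1 were added with their values known; some genes that the rule names are not reported here. The block was tried as an alternative, as were DESeq2 1.42.0, limma-voom (limma 3.58.1), RLE factors, library size alone, no filter, a filter of 1 CPM in 3 libraries, a threshold of 1 on the absolute log2 fold change, only the groups compared with and without the block, each library left out, and CPM per kilobase for TPM. Pool shares and the alternatives for them were added after seeing the data.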

Additional observations from a re-analysis of the deposited data

Results flagged for a closer look

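The Dox effect on Rarg differed between days by the interaction test in edgeR, in the fit of all 18 libraries. At day 5 minus day 3 it was -0.73 on the log2 scale (adjusted p = 0.036), and at day 5 minus day 0 it was -0.65 (adjusted p = 0.031). Neither call held throughout. Day 5 minus day 3 was lost with limma-voom (adjusted p = 0.15), with library size alone (0.082), without any 1 of the 6 day 3 libraries (0.069 to 0.1), and without Dox or control replicate 2 or 3 of day 5 (0.1 to 0.14). Day 5 minus day 0 was lost with limma-voom (0.11), library size alone (0.064), only the groups compared (0.11), and without the same 4 day 5 libraries (0.081 to 0.098). Rarg had 9.25, 8.23 and 8.46 CPM in Dox and 12.7, 14.5 and 15 CPM in control gastruloids at day 5, while its Dox and control libraries overlapped at day 0 and at day 3. Its level at day 5 was also the lowest of the 3 days in both courses.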

How the results depend on the processing

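Of 2602 values for 93 gene results under 28 settings, 2472 kept direction and side of the threshold, 53 lost a call, 13 gained one and 64 changed sign, none of them called in the main test. At day 5, Dox against control, 4 of 8 were called, with 3 to 5 when a library was left out and 0 when the log2 fold change also had to reach 1 in size. Rarb and Rarg kept their day 5 calls without any 1 library (adjusted p up to 0.034 and 0.016). At day 0 the count was 0 and 1 with no filter. For the Dox effect at day 5 minus day 3 the count of 1 was 0 with limma-voom, with library size alone and at a log2 fold change of 1, 2 with only the groups compared and the replicate block (Rxra, adjusted p = 0.041), and 0 to 1 without single libraries. At day 5 minus day 0 it was 0 with limma-voom, library size alone, a log2 fold change of 1 or only the groups compared, 2 with no filter, and 0 to 2 without single libraries. With the replicate block over all groups, Rxra gained its day 5 call (0.233, adjusted p = 0.030) and no other call among the 8 changed. Rxra also passed at day 5 with limma-voom (adjusted p = 0.031), with no filter (0.044), with only the groups compared (0.0088), with those and the replicate block (0.0011) and without day 0 Dox replicate 3 (0.042). The Rarb call for Dox day 3 against day 0 was lost with limma-voom (adjusted p = 0.14), library size alone (0.1), only the groups compared (0.17) and those with the replicate block (0.22). Library size alone moved the median log2 fold change of all genes by 0.154 (Dox) and 0.149 (control) for day 3 against day 0, and by 0.196 and 0.169 for day 5 against day 0. In log2, for control day 3 against day 0 it gave 0.0637 for Rarg and 0.125 for Rxrb, with 0.00213 for Rxrb under no filter. For Dox day 3 against day 0, Rarg was 0.00592 with the replicate block, 0.00648 with limma-voom, 0.149 with library size alone, 0.0303 with no filter, 0.0056 with only the groups compared and 0.0132 with the block too, and Rxrb was 0.145 with library size alone (adjusted p = 0.033) and 0.0256 with no filter. The cause was not tested. With CPM per kilobase in place of TPM, 37 of 48 group levels moved by more than 1 SD, since the scale itself is lower. That scale divides by the same lengths as TPM, so it could not move a share or ratio within a library and tests neither.

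Leaving out single libraries, log2 ranges that crossed 0 at day 0 (Dox against control) were -0.078 to 0.0883 for Rara, -0.187 to 0.0421 for Rarg, -0.0811 to 0.103 for Rxra, -0.0852 to 0.0479 for Rxrb, -0.31 to 0.131 for Nr2f1 and -0.398 to 0.217 for Nr2f2. At day 3 they were -0.049 to 0.102 for Rara, -0.248 to 0.347 for Rarb, -0.00561 to 0.0498 for Rarg, -0.0668 to 0.0491 for Rxra, -0.038 to 0.0367 for Rxrb and -0.149 to 0.0207 for Rxrg. For day 3 against day 0 they were -0.0624 to 0.0881 for Rara and -0.0882 to 0.0451 for Rxrb in control, and -0.051 to 0.116 for Rara, -0.102 to 0.104 for Rarg and -0.0279 to 0.0251 for Rxrb in Dox. For the Dox effect at day 3 minus day 0 they were -0.0848 to 0.0875 for Rara, -0.0207 to 0.209 for Rarg, -0.112 to 0.0717 for Rxra and -0.053 to 0.0802 for Rxrb. At day 5 minus day 3, Rara ran from -0.0264 to 0.13. At day 5 minus day 0 they were -0.0132 to 0.153 for Rara, -0.25 to 0.516 for Rarb and -0.124 to 0.00912 for Rxrb. Depth limits Rarb, Nr2f1 and Nr2f2 before day 5 and Rxrg at day 5, which rest on 3 to 68 counts per library.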

Other observations

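Other nuclear receptors of the stem cell state left early in the control course. Esrrb, an orphan receptor of naive pluripotency, had 7.43 ± 0.33 CPM at day 3 against 903 ± 30 CPM at day 0 (SD, n = 3), a log2 fold change of -6.92 with an edgeR adjusted p of 5.1e-19. Nr0b1, a corepressor-like orphan receptor, had 0.745 ± 0.089 against 170 ± 5.3 CPM, and Nr5a2, an activator of Pou5f1, had 0.583 ± 0.12 against 137 ± 6.9 CPM. Between these and the late COUP-TF genes, Nr3c1, the glucocorticoid receptor, stood highest at day 3, as Rxrg did, with 1.86 ± 0.53 CPM at day 5 against 20.6 ± 1.4 CPM at day 3. In all, 14 of 27 tested other nuclear receptors were higher and 11 lower at day 3 than at day 0, where 73.5% of all genes passed. For day 5 against day 3, 8 were higher and 15 lower, where 64.8% of all genes passed.

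Further groups moved in the control course. Crabp1 had 945 ± 93 CPM at day 5 against 6.28 ± 1.7 CPM at day 3, and Crabp2, which carries retinoic acid to RARs, had 1090 ± 67 against 20.2 ± 1.1 CPM. Among corepressor genes, Bcl11a, a zinc finger partner of COUP-TF proteins, had 22.2 ± 0.44 CPM at day 3 against 0.0462 ± 0.014 CPM at day 0, and 0.14 ± 0.071 CPM at day 5. Bcl11b followed the same course with 5.73 ± 0.75 CPM at day 3 and 0.0933 ± 0.038 CPM at day 5, when Nr2f1 and Nr2f2 were high. Among coactivators, Ncoa3 had 48.0 ± 1.3 CPM at day 3 against 277 ± 24 CPM at day 0, and Kat2b, an acetyltransferase, 13.8 ± 0.67 against 127 ± 4.4 CPM.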
